A study of Homo sapiens with 5 samples.

Results

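IGJ, MSI1, SH3BGRL2, NCS1, LOC102723517 and SMURF2 are 6 genes, of 25343 in the count table, that were chosen by their counts, which with the short isoform of TEAD4 stood many fold above those with the empty vector and above the other lines. The levels that follow are therefore a description of what chose them and not a finding. RNA was sequenced from 5 lines of H157, a human lung carcinoma cell line, and each line gave 1 library. Besides a line with control vector (vector) and a line that stably expressed YAP, there were lines that expressed YAP together with the full-length protein (YAP/TEAD4-FL), with the short protein (YAP/TEAD4-S) or with RBM4, a splicing factor (YAP/RBM4). The labels name the TEAD4 constructs TEAD434 and TEAD305, and the study's methods tie the former to the full-length and the latter to the short protein. The labels give a pCDNA control while the methods describe pCDH lentiviral vectors selected with puromycin, and no source used here says whether a line is a pool of cells or 1 clone. No line had a replicate, so no test between lines was made. A difference between 2 lines cannot be told apart from a difference between 2 libraries.

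TEAD4 is a DNA-binding partner of the co-activator YAP, through which the Hippo pathway controls genes of growth and migration. The short isoform lacks the N-terminal part of the protein, which holds the DNA-binding domain. The 6 genes come from unrelated families. IGJ, now named JCHAIN, encodes the chain that joins the units of polymeric immunoglobulin in plasma cells. MSI1 encodes Musashi-1, an RNA-binding protein of neural progenitors and stem cells. SH3BGRL2 encodes a small thioredoxin-like protein. NCS1 encodes neuronal calcium sensor 1, a calcium-binding protein that acts with PI4KB and inositol trisphosphate receptors. SMURF2 encodes a ubiquitin ligase of the NEDD4 family that acts on SMADs and TGF-beta receptors. LOC102723517 is an uncharacterized locus beside SOX9.

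Total expected counts were 2144934 for vector, 1399452 for YAP, 2396789 for YAP/TEAD4-FL, 3015173 for YAP/TEAD4-S and 2619399 for YAP/RBM4. TEAD4 was at 3.73 CPM (counts scaled to the library total) in vector, 3.57 CPM in YAP, 120.6 CPM in YAP/TEAD4-FL, 50.03 CPM in YAP/TEAD4-S and 5.73 CPM in YAP/RBM4, so it was high in both libraries labelled with a TEAD4 construct. YAP1 was at 33.1 CPM in vector, 102.2 CPM in YAP, 135.6 CPM in YAP/TEAD4-FL, 59.4 CPM in YAP/TEAD4-S and 103.5 CPM in YAP/RBM4. Among the YAP lines it was thus lowest in YAP/TEAD4-S, at 0.581-fold of YAP (0.464 to 0.729). RBM4 was at 167.2 CPM (95% interval 151.9 to 183.6) in YAP/RBM4 and at 149.7 CPM (133.7 to 167.0) in vector, so the count table did not show a raised RBM4 in the library labelled YAP/RBM4. Intervals here are exact and cover counting error only.

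IGJ had 52.30 counts in vector, 0 in YAP, 4.05 in YAP/TEAD4-FL, 3258.13 in YAP/TEAD4-S and 42.25 in YAP/RBM4. The YAP/TEAD4-S library alone was high, and vector and YAP/RBM4 had overlapping intervals (18.1 to 31.8 and 11.6 to 21.7 CPM). The level with YAP/TEAD4-S was 44.3-fold that in vector (33.9 to 59.8) and 639.5-fold that in YAP/TEAD4-FL (252.6 to 2378). Against YAP, with 0 counts, it was at least 504.1-fold higher, taking a floor of 3 counts per library.

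SMURF2 was the most counted of the 6 genes, with 263.98 counts in vector, 17.16 in YAP, 109.04 in YAP/TEAD4-FL, 6563.00 in YAP/TEAD4-S and 169.56 in YAP/RBM4. The 5 libraries had intervals that did not overlap, with YAP the lowest at 12.3 CPM and YAP/TEAD4-S the highest at 2177 CPM. YAP/TEAD4-S was 17.7-fold above vector (15.6 to 20.1), 47.8-fold above YAP/TEAD4-FL (39.6 to 58.4) and 177.5-fold above YAP (111.8 to 307.8).

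MSI1 had 26.69 counts in vector, 0 in YAP, 8.71 in YAP/TEAD4-FL, 863.78 in YAP/TEAD4-S and 6.09 in YAP/RBM4. Vector lay above YAP/TEAD4-FL and YAP/RBM4 beyond their intervals, and those libraries overlapped each other. YAP/TEAD4-S was 23.02-fold above vector (15.54 to 34.75) and 78.8-fold above YAP/TEAD4-FL (40.0 to 167.5).

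NCS1 had 10.75 counts in vector, 10.03 in YAP, 21.80 in YAP/TEAD4-FL, 875.48 in YAP/TEAD4-S and 10.21 in YAP/RBM4. The 4 other libraries lay between 3.90 and 9.10 CPM with overlapping intervals, and NCS1 alone of the 6 genes had its second highest level in YAP/TEAD4-FL. Its ratio to YAP/TEAD4-FL was 31.9-fold (20.7 to 50.7), and its ratio to vector 57.9-fold (31.5 to 113.8).

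SH3BGRL2 had 3.29 counts in vector, 181.27 in YAP/TEAD4-S and 0 in YAP, YAP/TEAD4-FL and YAP/RBM4. Outside YAP/TEAD4-S it was thus near or under what the depth can show. The ratio to vector of 39.2-fold rests on those few counts (14.5 to 210.1), and the level was at least 28.0-fold, 48.0-fold and 52.5-fold higher than in YAP, YAP/TEAD4-FL and YAP/RBM4.

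LOC102723517 had 18.21 counts in vector, 0 in YAP, 5.10 in YAP/TEAD4-FL, 198.14 in YAP/TEAD4-S and 11.79 in YAP/RBM4. Vector and YAP/RBM4 overlapped, as did YAP/RBM4 and YAP/TEAD4-FL. Its ratio to vector was the smallest of the 6, at 7.74-fold (4.82 to 13.48), and its ratio to YAP/TEAD4-FL was 30.9-fold (13.3 to 98.0).

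Together the 6 genes took 0.396% of all counts in YAP/TEAD4-S, 0.0175% in vector, 0.00916% in YAP/RBM4, 0.0062% in YAP/TEAD4-FL and 0.00194% in YAP. YAP/TEAD4-S held between 81.3% (LOC102723517) and 97.5% (SH3BGRL2) of a gene's CPM summed over the 5 libraries. Levels of different genes can be compared only per length. Per kb of the longest annotated transcript, the YAP/TEAD4-S library held 840.3 CPM of IGJ, 348.8 of SMURF2, 96.8 of MSI1, 56.2 of NCS1 and 13.1 of SH3BGRL2.

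In all, 15024 genes reached 1 CPM on average over the libraries. Of these, 39 were at least 2-fold above the highest of the other 4 libraries with YAP/TEAD4-S, or 0.26%. The count was 63 under TMM factors or DESeq2 size factors, 62 without the 50 most abundant genes in the totals, 90 with no filter and 25 at a filter of 10 CPM. The 6 genes are among the 39 by the way they were chosen. Log2 ratios were taken after adding 0.5 CPM. Among the 7456 genes with at least 10 CPM in YAP/TEAD4-S, IGJ, NCS1, SH3BGRL2, MSI1 and SMURF2 held the first 5 places in this order and LOC102723517 the 10th. Just inside the choice lay LOC102723517 at 7.74-fold above the highest other library, and 4 genes outside it lay higher, led by BEND3 at 15.2-fold (5.13 to 77.8), which rests on 65.62 counts.

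The 10 genes outside the choice with the pattern most like it, by this ratio over the 5 libraries, were BEND3, WNK3, LCOR, CAMKMT, PRICKLE2, FZD5, CALR, SRGAP1, THRAP3 and PAFAH1B2. WNK3, a kinase of ion transport, was at 221.6 CPM in YAP/TEAD4-S and at 13.7 to 22.2 CPM in the others. FZD5, a Wnt receptor, was at 645.0 CPM in YAP/TEAD4-S, 110.9 CPM in vector and 3.16 CPM in YAP. CALR, a chaperone of the endoplasmic reticulum, was at 1656 CPM in YAP/TEAD4-S and at 324.5 to 381.5 CPM in the others, which lay close together. THRAP3, a splicing and transcription cofactor, was at 14102 CPM with YAP/TEAD4-S, 3765 CPM in vector and 288.8 CPM in YAP. PAFAH1B2, a subunit of a platelet-activating factor acetylhydrolase, was at 48375 CPM in YAP/TEAD4-S, 13616 CPM in vector and 1554 CPM in YAP.

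The order of the other libraries was shared by several of these genes. IGJ, SMURF2 and LOC102723517 ran YAP/TEAD4-S, vector, YAP/RBM4, YAP/TEAD4-FL, YAP from high to low, and FZD5, SRGAP1, THRAP3 and PAFAH1B2 had the same order. So did VAX1, a homeobox gene named here after its values were seen, which was the source of 14.1% of all counts in YAP/TEAD4-S, 6.32% in vector, 6.0% in YAP/RBM4, 4.22% in YAP/TEAD4-FL and 0.713% in YAP. Of the 33 genes at least 2-fold above every other library that were not among the 6, 26 (78.8%) had their lowest level in YAP, against 20.4% of all 15024 genes. Vector was the highest of the other 4 libraries in 20 of the 33 (60.6%), against 18.8% of all genes. These shares describe 5 single libraries, of which YAP was the least deep.

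**Figure D1:**
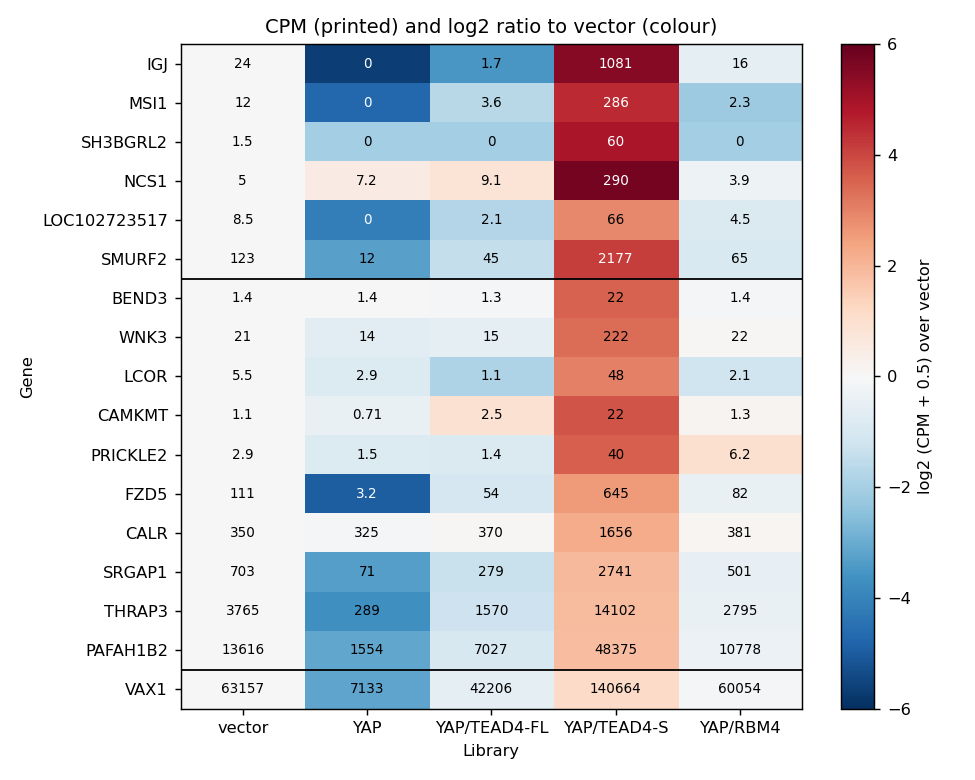
CPM of the 6 genes, the 10 most like them and VAX1 (printed numbers) in the 5 libraries, with the colour giving log2 of the ratio to vector after adding 0.5 CPM. YAP/TEAD4-S is red in every row, and YAP is blue for IGJ, MSI1, LOC102723517, SMURF2, FZD5, SRGAP1, THRAP3, PAFAH1B2 and VAX1 but near white for CALR and BEND3.

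The transcripts of the 6 genes were compared for features that the choice did not use. All 5 genes with a transcript in GENCODE on hg19 carried a run of at least 16 T on the sense strand of the 3′ UTR, in the last exon, and C filled much of the stretch before it. LOC102723517 had no transcript in this annotation. The 30 bases that end with the run are shown for these 5 genes, so that the likeness can be seen, and for WNK3 and CALR, which had the same feature, VAX1, which had a shorter run in the 5′ UTR after a C-rich stretch, and BEND3, which had the T run without the C. Capitals mark the T run, and the strand is that of the gene. Of several runs of at least 14 T in a gene, that with most C before it is shown.

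IGJ: gcattcccccccgcTTTTTTTTTTTTTTTT
MSI1: ctttcccTTTTTTTTTTTTTTTTTTTTTTT
SH3BGRL2: tccccaccccaTTTTTTTTTTTTTTTTTTT
NCS1: gccttgcccccctcTTTTTTTTTTTTTTTT
SMURF2: cccccccccccccTTTTTTTTTTTTTTTTT
VAX1: tctccgccccccccccTTTTTTTTTTTTTT
WNK3: ccatcccccgccTTTTTTTTTTTTTTTTTT
CALR: ccctccccgcccTTTTTTTTTTTTTTTTTT
BEND3: tgttttttggaTTTTTTTTTTTTTTTTTTT

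The stretch of IGJ lay in exon 4 of 4 at chr4:71521660-71521689 on the minus strand (hg19), with 16 T and 8 C among the 12 bases before them. That of MSI1 lay in exon 15 of 15 at chr12:120780454-120780483 on the minus strand, with 23 T and 6 C. SH3BGRL2 had 19 T and 9 C in exon 4 of 4 at chr6:80411309-80411338 on the plus strand. NCS1 had 16 T and 8 C in exon 8 of 8 at chr9:132998814-132998843 on the plus strand. SMURF2 had 17 T and 12 C in exon 19 of 19 at chr17:62541835-62541864 on the minus strand. In the other genes shown, WNK3 (chrX:54224386-54224415, minus strand), CALR (chr19:13054892-13054921, plus strand) and BEND3 (chr6:107387299-107387328, minus strand) had the run in the 3′ UTR, and VAX1 (chr10:118897608-118897637, minus strand) had it in the 5′ UTR.

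The feature was looked for in the other genes after it had been seen in the 6, which were left out of these shares. Of the 33 other genes at least 2-fold above every other library, 28 (84.8%) had a run of at least 14 T in a transcript, against 3185 of all 14090 genes with a transcript (22.6%). The share was 69.1% under TMM factors or DESeq2 size factors, 68.5% without the 50 most abundant genes in the totals and 43.8% with no filter, each over the larger set of genes that the setting gives. All 21 of the 33 with at least 10 CPM in YAP/TEAD4-S had such a run. The 22.6% covers genes that averaged at least 1 CPM. No share of all genes is given at 10 CPM or under those other scalings and filters. Runs of at least 14 A were present in 9 of the 33 (27.3%), against 20.2% of all genes. Read the other way, 0.879% of genes with a run of at least 14 T were at least 2-fold above every other library with YAP/TEAD4-S, against 0.0459% of genes without one, and the corresponding shares for A were 0.315% and 0.214%. Genes with long T runs had longer transcripts, with a median of 5258 bases against 3318. Among genes with transcripts under 3000 bases the shares were 0.589% with a T run and 0.0418% without, at 3000 to 6000 bases 0.837% and 0.045%, and at 6000 bases or more 1.05% and 0.0598%.

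**Figure D2:**
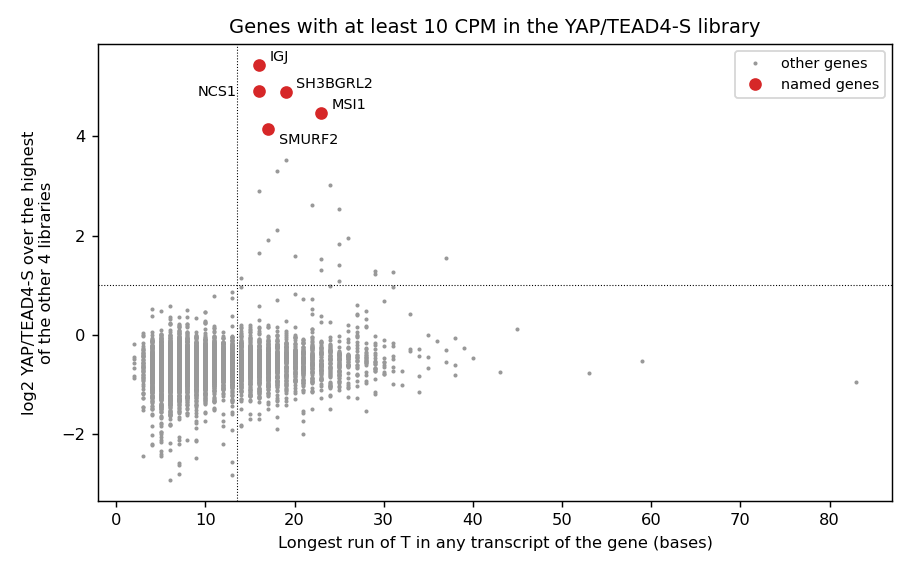
Log2 ratio of YAP/TEAD4-S to the highest of the other 4 libraries against the longest T run in any transcript of a gene, for genes with at least 10 CPM in YAP/TEAD4-S, with dotted lines at 2-fold and at 14 T. The 5 genes with a transcript (red) have runs of 16 to 23 T, and no point lies in the upper left part, where genes with shorter runs and a 2-fold ratio would be.

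The share also differed with the bases before the run. Each gene was classed by its largest number of C before any run of at least 14 T in its transcripts. A gene with more transcripts or runs can reach a higher class more easily, and the classes were not split by transcript length. Among genes with a run of at least 14 T, 0.365% were at least 2-fold above every other library where 0 to 2 of the 12 bases before it were C, 0.45% at 3 to 5 C, 4.22% (10 of 237) at 6 to 8 C and 27.3% (6 of 22) at 9 to 12 C. The genes above every other library in the last class were WNK3, CALR, PAFAH1B2, RNF169, SOX2-OT and VAX1. In that class, 40.9% were at least 2-fold above vector with YAP/TEAD4-S, against 6.21% of all genes, and 27.3% were at least 2-fold below vector with YAP, against 9.57% of all genes. The deposited table gives no read positions, so where in these genes the reads lay was not examined, and the part of the T runs in the result was not tested. Expected counts that are not whole can come from reads that the counting divided between genes. In YAP/TEAD4-S, 5 of the 6 genes and all 10 most like them had a count more than 0.005 from a whole number, against 56.2% of all genes with a count there, 49.6% of genes without and 70.7% of genes with a run of at least 14 T. SMURF2 was the gene of the 6 with a whole count there. These sets were not matched on counts, and a gene with more counts has more reads that could be divided.

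To ask whether the high level of a gene extended along its chromosome, the 5 nearest genes on each side that reached the same mean were compared with vector. For neighbours and gene lists, the 2-fold calls, the medians and the ranges were taken after subtracting the median of all genes, which was -0.29 on the log2 scale for YAP/TEAD4-S over vector, while the folds of vector printed for single genes are before it. A gene can therefore be called 2-fold higher at a printed fold under 2, and a printed fold under 0.5 need not be called lower. Of the 60 neighbours, 3 (5.0%) were at least 2-fold higher and 3 (5.0%) at least 2-fold lower, against 6.21% and 5.79% of all genes. Their median log2 ratio was 0.07, with a range of -1.62 to 1.75, while the 6 genes themselves lay between 3.17 (LOC102723517) and 6.01 (NCS1). Some of these neighbours lay far off, up to 3559 kb from SH3BGRL2, 1985 kb from IGJ and 1640 kb from SMURF2. Copy number was not measured, and the part of a change in 1 clone was not tested.

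IGJ lies at chr4:71521258-71547534. Its nearest expressed neighbour UTP3, a ribosome biogenesis factor at a distance of 6.72 kb, was at 0.97-fold of vector (0.416 to 2.33) before the median was taken off, and the next, RUFY3, at 0.83-fold (0.430 to 1.57). On the other side lay PRR27 at 1.15-fold and SULT1E1, an estrogen sulfotransferase, at 0.566-fold. None of the 10 neighbours of IGJ was changed 2-fold in either direction after the median was taken off.

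MSI1 (chr12:120779133-120806967) lies between PXN, which encodes the focal adhesion protein paxillin, at 1.21-fold of vector (0.958 to 1.55), and COX6A1, a subunit of cytochrome c oxidase, at 0.745-fold (0.477 to 1.17). PXN-AS1 was at 0.978-fold and GATC at 1.06-fold. RAB35, the fifth gene on one side, was the single neighbour past 2-fold after the median was taken off, with an interval of 0.825 to 4.15 around its ratio of 1.78-fold.

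For SH3BGRL2 (chr6:80341046-80413372), HMGN3-AS1 was at 0.796-fold of vector, HMGN3, a nucleosome-binding protein, at 1.502-fold (0.836 to 2.80), TTK, a kinase of the spindle checkpoint, at 1.05-fold, and C6orf7 at 0.320-fold (0.0881 to 1.01). C6orf7 was past 2-fold downward after the median was taken off, on few counts. The distances were large here, from 99.9 kb for C6orf7 to 396.6 kb for HMGN3 among the genes named, and the farthest neighbour counted lay 3559 kb away.

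Around NCS1 (chr9:132934683-132999582), every neighbour but C9orf78 was below 0 after the median was taken off, and their median was -0.33. GPR107, at 32.2 kb, was at 0.668-fold of vector (0.391 to 1.13) and FNBP1 at 0.724-fold. ASS1, the argininosuccinate synthase of arginine synthesis, was at 0.315-fold (0.227 to 0.432), FUBP3 at 0.711-fold, and EXOSC2, a subunit of the RNA exosome, at 0.265-fold (0.234 to 0.299). ASS1 and EXOSC2 were lowest in YAP/TEAD4-S of the 5 libraries, the opposite direction to NCS1, but both were below vector in the other YAP lines as well. ASS1 was at 61.1 CPM in vector, 22.9 to 47.0 CPM in those lines and 19.2 CPM in YAP/TEAD4-S. EXOSC2 was at 454.6 CPM, 163.7 to 240.3 CPM and 120.4 CPM.

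SMURF2 (chr17:62538400-62658425) overlaps CEP95, a centrosomal gene, which was at 1.69-fold of vector (0.749 to 3.85). DDX5, an RNA helicase, was at 0.767-fold (0.567 to 1.05), PLEKHM1P at 1.42-fold and LRRC37A3 at 0.726-fold (0.605 to 0.873). No neighbour of SMURF2 passed 2-fold.

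LOC102723517, also on chromosome 17, had no position on hg19 in the annotation used, and its neighbours were taken by their order in RefSeq. LINC01152 was at 0.850-fold of vector and SOX9-AS1 at 0.885-fold. SOX9, a transcription factor of progenitor cells, was at 35.0 CPM in YAP/TEAD4-S and at 12.3 to 23.3 CPM in the others, or 2.83-fold above vector (1.86 to 4.60). KCNJ2, a potassium channel with a run of 34 T in a transcript, was at 4.11 CPM in YAP/TEAD4-S. It was the 1 neighbour of the 60 at least 2-fold above every other library, against 0.26% of all genes. Its level was 2.28-fold above vector, with a wide interval (0.647 to 9.08). Thus SOX9 was the single neighbour past 2-fold upward whose interval lay above 1, and its level was under 2-fold above that in YAP/TEAD4-FL.

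The families and partners of the 6 genes were set beside the shares of all genes, 6.21% at least 2-fold higher and 5.79% at least 2-fold lower. In lists this small, a count of 0 or 1 cannot be told apart from those shares. Among the SH3BGR family, SH3BGRL was at 0.679-fold of vector (0.355 to 1.30) and SH3BGRL3 at 1.04-fold (0.725 to 1.49), and SH3BGR had 0 counts in YAP/TEAD4-S and 1 in vector. MSI2, the other Musashi gene, had 5 counts in YAP/TEAD4-S and 3 in vector. Of 5 other neuronal calcium sensor genes past the filter, 1 was at least 2-fold higher, KCNIP3 with 4 counts against 0, and none was 2-fold lower. HPCAL1 was at 0.654-fold of vector and GUCA1B at 1.07-fold. None of 7 partners of NCS1 passed 2-fold after the median was taken off. Before it, PI4KB was at 0.804-fold and ITPR1, at -0.90 on the log2 scale after it, at 0.415-fold of vector (0.198 to 0.835).

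Of the 8 other ligases of the NEDD4 family, 1 was at least 2-fold higher and none lower after the median of all genes was taken off, against 6.21% and 5.79% of all genes, with a median of 0.06 on the log2 scale. That ligase was WWP2, at 1.02 on this log2 scale and at 1.74-fold of vector (0.729 to 4.12) before the median was taken off. SMURF1, the closest relative of SMURF2, was at 0.543-fold of vector (0.416 to 0.711), NEDD4 at 0.688-fold, NEDD4L at 0.885-fold and ITCH at 1.23-fold. In the TGF-beta and BMP pathway, on which SMURF2 acts, 6 of 26 genes passed 2-fold upward, a larger share than the 6.21% of all genes. Downward 2 passed, against 5.79% of all genes, and the median was 0.07. Most of the genes past 2-fold rested on few counts. The type I receptor BMPR1A was at 5.34-fold of vector (1.24 to 48.1) with 15 counts, and the inhibitory SMAD7 at 5.69-fold (0.763 to 252.5) with 8 counts. SKIL, a repressor of SMAD signalling, was at 1.97-fold (1.49 to 2.61). BMPR1B, with 13.25 counts, was the 1 gene of this list at least 2-fold above every other library, against 0.26% of all genes. It had a run of 32 T in a transcript, a feature of most genes with this pattern.

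The markers of the cell types in which IGJ and MSI1 are best known were counted beside the all-gene shares of 6.21% higher and 5.79% lower. With so few genes past the filter, a count of 0 higher lies near those shares. In RNA of a whole culture, fewer cells of a type and less RNA per cell cannot be told apart. Without IGJ, 7 of the other B cell and plasma cell markers passed the filter, of which 1, PRDM1, was at least 2-fold lower and none higher, with a median of -0.22. CD79A, CD79B, TNFRSF17 and FCRL5 had 0 counts in all 5 libraries. Others of the list were present in all of them, with POU2AF1 at 51.6 to 70.2 CPM, PIGR at 50.1 to 97.7 CPM and XBP1 at 26.4 to 42.8 CPM. SDC1, at 12.6 to 22.1 CPM, was at 1.19-fold of vector (0.720 to 1.99), and POU2AF1, PIGR and XBP1 were at 0.735-fold, 0.703-fold and 0.649-fold. The summed level of the list, before the median was taken off, was 148.5 CPM in YAP/TEAD4-S and 202.7 to 229.1 CPM in the others. Without MSI1, 6 neural markers passed, of which 2, NES (1 count against 4 in vector) and MAP2, were at least 2-fold lower and none higher, with a median of -0.60 that became 0.11 at a filter of 10 CPM, and PROM1, ELAVL4 and INSM1 had 0 counts in all libraries. TUBB3, at 35.1 to 73.3 CPM over the libraries, was at 1.25-fold of vector (0.936 to 1.69), and PAX6, at 18.1 to 38.9 CPM, at 0.613-fold. The sum of the neural list was 79.5 CPM in YAP/TEAD4-S and 95.03 to 113.6 CPM in the others. Lower sums in YAP/TEAD4-S were not particular to these lists, since the leukocyte list was at 365.4 CPM there and 398.0 to 469.3 CPM in the others. Of 9 genes of the Notch pathway and Musashi targets, JAG2 was at least 2-fold lower and none higher, with NUMB, a target of Musashi-1, at 0.676-fold of vector (0.538 to 0.849).

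Of 5 epithelial markers past the filter, 1, KRT17, was at least 2-fold lower, and KRT8 and KRT18 were at 0.835-fold and 0.819-fold of vector, while KRT14, KRT19, EPCAM and TP63 were at or near 0. Fibroblast, endothelial and leukocyte lists had medians of -0.47, 0.37 and -0.11 over 3, 2 and 5 genes, with 1, 0 and 1 at least 2-fold lower and none higher. Of 24 YAP/TEAD target genes, none was at least 2-fold higher and 2, DLC1 and RBMS3 (0 counts against 2 in vector), were lower, against 6.21% and 5.79% of all genes, with a median of 0.10. CTGF was at 1.02-fold of vector (0.819 to 1.28) and CYR61 at 1.46-fold (1.22 to 1.76).

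The promoters of 4 of the 6 genes were searched for CATTCC on both strands (GGAATG on the other), the core of the site that TEAD proteins bind. Promoter sequences from RefSeq on GRCh38, from 250 bases before to 50 after the start, were given for IGJ, SH3BGRL2, NCS1 and SMURF2. None of their promoters held these letters in that window, against 4928 of all 35116 promoters.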

How the data were processed

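RNA-seq of 5 H157 lines, 1 library each, was analysed from the deposited table of genes. The authors aligned reads to hg19 with Bowtie2 (version 2.2.5, per the submitters' processing notes) and RSEM and deposited expected counts, estimates that may be fractional, without scaling. The sources name both polyadenylated RNA and removal of ribosomal RNA, so how the RNA was selected is uncertain, and no source used here names the RSEM annotation. The column headers carry the words second strand, and what setting this stands for is not stated. The authors' EBSeq calls were not used.

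CPM were computed on library totals. For log2 ratios, 0.5 CPM was added and the 15024 genes that averaged at least 1 CPM were kept. Counts were rounded for exact 95% intervals (binomial for a ratio, Poisson for a level), which cover counting error only, and a count of 0 was set to a floor of 3 counts per library. The members and gene lists were chosen with earlier results of these data known. Genes named are the 6 genes, the 2 nearest expressed genes on each side, their families, up to 4 members of other lists by size of ratio, the 10 most like genes and the construct genes. Named after their values had been looked at were VAX1, RNF169, SOX2-OT, RAB35, EXOSC2, C9orf78, BMPR1B and list members given as background. The T run was likewise found in the values. GENCODE (version 44, on hg19) gave transcripts for 22982 of 25343 symbols, 1445 of them through RefSeq synonyms. Scaling factors for the alternatives came from edgeR 4.0.16 and DESeq2 1.42.0 under R 4.3.3. All else was run in Python 3.11.15 with pandas 2.3.3, numpy 2.4.6, scipy 1.17.1 and matplotlib 3.10.9. Scripts were tested on simulated data.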

Additional observations from a re-analysis of the deposited data

How the results depend on the processing

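No paired analysis was possible because each line gave 1 library, and no replicate could be left out. The ratios of the 6 genes kept their direction under every scaling (size factors of DESeq2, TMM factors, and totals that leave out the 50 most abundant genes), and without the YAP library. The way they were chosen fixed this outcome, since their ratios were many fold and the scalings moved them little. Leaving out YAP could not change the ratios either, because YAP was the highest other library for none of the 6 genes. For SMURF2 the ratio to vector, also its ratio to the highest other library, went from 17.7-fold to 21.8-fold under TMM factors, 21.7-fold under DESeq2 size factors and 21.5-fold without the 50 genes. The other 5 genes stayed within their counting intervals. The 39 genes at least 2-fold above every other library became 63 under TMM factors, 63 under DESeq2 size factors, 62 without the 50 genes, 90 with no filter and 25 at a mean of at least 10 CPM. The share of them with a run of at least 14 T, the 6 genes left out, was then 69.1%, 69.1%, 68.5%, 43.8% and, at 10 CPM, all of them. No share of all genes is given for these settings. An alternative chosen after seeing the data used only the longest transcript of each gene. With it, 27 of the 33 had such a run, against 16.1% of all genes. The 3 neighbours at least 2-fold higher than vector became 5 without the 50 genes, 5 at a pseudocount of 0.1 CPM, 1 at 2 CPM, 1 at a mean of at least 10 CPM, 5 of 92 genes within 1 Mb and 226 of 3380 (6.69%) on the same chromosomes, where 200 (5.92%) were lower and 7 were above every other library. Among all genes, 0.26% were at least 2-fold above every other library. KCNJ2, the 1 neighbour above every other library, was lost at a pseudocount of 2 CPM, at 10 CPM and within 1 Mb, each with 0. The median of a gene list changed sign at 10 CPM for the neural (0.11), NEDD4 family (-0.22), calcium sensor (-0.27) and epithelial (0.01) lists, and with no filter for the endothelial (-0.25) and SH3BGR (-0.29) lists, so their direction depends on which genes are kept. The median of the neighbours kept its sign in each alternative run. Levels of 0 to 10 counts, as for SH3BGRL2 outside YAP/TEAD4-S, limit the ratios they enter.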
